A study of Mus musculus with 8 samples.

Results

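The CD3 chains, the pre-T cell receptor alpha chain and a gamma-chain variable segment were measured on 8 microarrays of cultured lineage-negative and T lineage cells. The 7 genes were taken by name, as the probesets that the array annotation assigns to exactly 1 of Cd3g, Cd3d, Cd3e, Cd247, Ptcra, Trat1 and Trgv1. Each had 1 such probeset, so 7 of the 19938 genes tested (21789 probesets) are described here.

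Lymphoid primed multipotent progenitors, an early bone marrow cell with lymphoid potential, were sorted as lineage marker negative, Sca+, kit+ and Flt3 high. They came from Tcf7-/- mice, called Tcf1 deficient, or from Tcf7+/+ mice of the same line, backcrossed for about 6 generations and kept on a mixed background. Both were cultured for 4 days with Flt3L at 5 ng/ml and, as the labels name it, IL1 at 1 ng/ml. The cells grew on OP9-DL4 stroma, which displays the Notch ligand DL4. CD45.2 cells were then sorted. Deficient lineage-negative (LN) cells and wildtype LN cells, both Mac1-, Gr1-, Thy1- and CD25-, came from 3 mice per genotype. Wildtype T cells (Thy1+, CD25+) came from 2 replicates. Per the labels no Thy1+ CD25+ cells arose from deficient progenitors, so there is no deficient T group. The labels used here state no age for the mice. Tcf7 itself was not analysed here, so its transcript gave no check of the genotype labels. The labels call the 2 T arrays biological replicates without naming a mouse, and their levels of Y-linked genes differed widely (9.36 and 5.04 as a mean of 3 genes).

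Each T cell receptor is a pair of variable chains, alpha with beta or gamma with delta, that binds its ligand but cannot signal. It is held at the surface by the CD3 gamma, delta and epsilon chains and by the CD247 (zeta) dimer, whose cytoplasmic tails carry tyrosine motifs called ITAMs. Before an alpha chain exists, a rearranged beta chain pairs with the surrogate chain encoded by Ptcra, and this pre-T cell receptor drives beta selection in the thymus. Trat1 encodes TRIM, a transmembrane adaptor that associates with the receptor. Trgv1 is a variable segment of the gamma locus, which rearranges early and in cells of both T lineages.

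The gated proteins checked the sort at the transcript level. Thy1 and Il2ra (CD25) together had a mean level between 12.05 and 12.38 on the T arrays and between 7.06 and 7.84 on the 6 LN arrays. Levels are log2 values, and a difference of 1 is a doubling. Array medians lay between 6.85 and 6.91, and no call of detection above background was used. RNA came from sorted populations, where fewer cells of a type and less RNA per cell cannot be told apart.

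Cd3g, Cd3d and Cd3e are neighbours on chromosome 9, and Cd3g and Cd3d are transcribed away from each other. Their start sites lie 1355 bases apart in RefSeq's GRCm38.p6 windows, which cover 250 bases before to 50 after a start. Of the 7 genes, 6 had a window. Those of Cd3g, Cd3d and Trat1, which rose most in T cells apart from Trgv1, are shown beside that of Ptcra, which did not pass the test. Capitals mark the letters CTTTGA or CTTTGT on either strand, the core recognised by the TCF/LEF family to which Tcf1 belongs. All are printed 5′ to 3′ on the gene's strand.

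Cd3g (chr9:44980382-44980681, minus strand): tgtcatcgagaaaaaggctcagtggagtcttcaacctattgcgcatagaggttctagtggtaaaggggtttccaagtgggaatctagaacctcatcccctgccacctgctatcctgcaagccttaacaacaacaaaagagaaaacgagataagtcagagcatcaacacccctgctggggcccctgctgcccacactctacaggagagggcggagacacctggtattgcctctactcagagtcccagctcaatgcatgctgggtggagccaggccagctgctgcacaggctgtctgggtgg
Cd3d (chr9:44981536-44981835, plus strand): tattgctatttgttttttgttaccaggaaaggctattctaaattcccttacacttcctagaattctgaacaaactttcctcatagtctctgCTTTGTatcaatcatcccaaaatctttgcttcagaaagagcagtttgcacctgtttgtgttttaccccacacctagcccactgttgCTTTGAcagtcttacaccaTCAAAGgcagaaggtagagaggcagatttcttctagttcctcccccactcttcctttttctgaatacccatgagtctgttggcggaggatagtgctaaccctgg
Trat1 (chr16:48772013-48772312, minus strand): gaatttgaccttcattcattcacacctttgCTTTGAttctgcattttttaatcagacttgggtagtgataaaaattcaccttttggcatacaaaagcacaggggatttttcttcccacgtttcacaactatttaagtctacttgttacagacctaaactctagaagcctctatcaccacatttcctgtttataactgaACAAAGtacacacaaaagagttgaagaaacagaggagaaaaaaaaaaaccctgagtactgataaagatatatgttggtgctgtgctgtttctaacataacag
Ptcra (chr17:46763663-46763962, minus strand): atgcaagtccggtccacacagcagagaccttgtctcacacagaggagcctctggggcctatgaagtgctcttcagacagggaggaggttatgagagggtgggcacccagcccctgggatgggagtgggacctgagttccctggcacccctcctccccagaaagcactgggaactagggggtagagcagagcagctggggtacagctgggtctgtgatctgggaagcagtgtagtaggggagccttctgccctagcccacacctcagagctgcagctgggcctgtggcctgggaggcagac

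Cd3d held 3 of these matches, starting 159, 73 and 54 bases before the start site, and Trat1 held 2, starting 220 and 52 bases before it. Cd247 held 1, and Cd3g, Cd3e and Ptcra held none in the window. Of 32817 windows of the same length in the table, 31.2% held at least 1 match and 6.68% at least 2. Other letters searched on both strands were the GATA core (AGATAA or TGATAA), which Cd3g held once and Trat1 held in 2 places. Of all windows 18.6% held at least 1 and 3.26% at least 2. E box letters (CAGCTG or CAGGTG) were found in Cd3g (3), Ptcra (3), Cd3d (1), Cd3e (1) and Cd247 (1). At least 1 was held by 33.0% of all windows and at least 2 by 7.37%. Runx letters (TGTGGT or TGCGGT) were found in Trat1 alone among the 6, against 22.4% of all windows with at least 1. Ets letters (AGGAAG) were found 2 times each in Cd3d, Cd3e and Cd247, against 35.4% of all windows with at least 1 and 8.63% with at least 2. None of the matches in these 6 windows overlapped another, and a match describes the letters without showing a bound site.

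The first question was which parts of the receptor complex set wildtype T cells apart from wildtype LN cells. All 4 CD3 chains, Trat1 and Trgv1 were higher in T cells, by 1.56-fold to 66.5-fold, and Ptcra did not pass. Of the 7 genes 6 were called higher (limma adjusted p under 0.05) and 0 lower, where 7.66% of all tested probesets were called higher and 10.4% lower. The median difference was 2.50 over the 7 genes and 0.04 over all probesets. The 6 genes also had both T arrays above all 3 wildtype LN arrays, which held for 28.0% of all probesets.

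**Figure D1:**
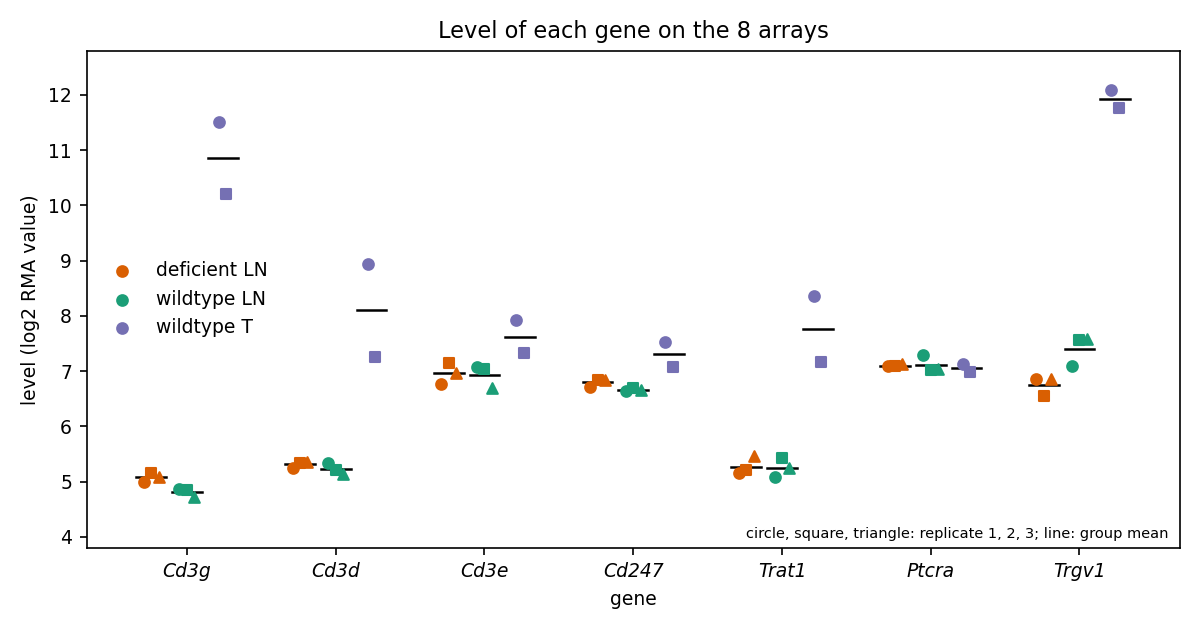
Level of each gene (log2 RMA value, vertical axis) on each of the 8 arrays, with colours for the 3 groups, marker shapes for the replicate and a line at each group mean. T arrays lie above all LN arrays for every gene but Ptcra, and array 1 of the T cells is the higher of the pair for each gene.

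Cd3g encodes the gamma chain of CD3, which pairs with CD3 epsilon. It stood at 11.52 and 10.21 on the T arrays, at 4.86, 4.85 and 4.72 on the wildtype LN arrays and at 4.99, 5.16 and 5.08 on the deficient LN arrays. Both T arrays were far above all LN arrays. The difference from wildtype LN cells was 6.05 (SE 0.27, limma adjusted p = 1.92e-07), or 66.5-fold, the largest rise of the 21789 probesets. It was 5.40 without T array 1 and 6.71 without T array 2.

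Cd3d, its neighbour on the opposite strand, encodes the delta chain, which also pairs with CD3 epsilon. It stood at 8.94 and 7.26 on the T arrays, between 5.14 and 5.34 on the wildtype LN arrays and between 5.24 and 5.36 on the deficient LN arrays. The T arrays did not overlap with the LN arrays but lay well apart from each other. The difference was 2.87 (SE 0.35, limma adjusted p = 0.000195), or 7.31-fold, and ranked 10 from the highest. It was 2.03 without T array 1 and 3.71 without T array 2. Although Cd3g and Cd3d share a short stretch between their starts, the measured rise was larger for Cd3g on each T array. The 95% intervals were 5.45 to 6.66 for Cd3g and 2.10 to 3.64 for Cd3d. They rest on a spread shared by all groups, as does every SE of the T comparisons. The SD of the T arrays was 0.92 for Cd3g and 1.19 for Cd3d, against 0.08 and 0.10 for wildtype LN arrays. The estimates without either T array fell outside these intervals, which therefore understate the gap between the T arrays. The contrast between Cd3g and Cd3d was not itself tested, and probesets can respond unequally.

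Cd3e encodes the epsilon chain, present in both CD3 pairs of each receptor. It stood at 7.93 and 7.32 on the T arrays, at 7.08, 7.04 and 6.69 on the wildtype LN arrays and at 6.77, 7.15 and 6.96 on the deficient LN arrays. The lower T array was just above the highest LN array. The difference was 0.69 (SE 0.18, limma adjusted p = 0.0218), or 1.61-fold, far smaller on this scale than those of its 2 neighbours. The call was lost without T array 1 (0.39, limma adjusted p = 0.217) and without wildtype LN array 3 (0.56, limma adjusted p = 0.0742). It was also lost with the replicate number as a block (0.63, limma adjusted p = 0.0655) and with all probesets tested (limma adjusted p = 0.0770).

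Cd247 encodes the zeta chain, which natural killer cells also use with their Fc receptor. It stood at 7.53 and 7.08 on the T arrays, at 6.64, 6.69 and 6.66 on the wildtype LN arrays and at 6.71, 6.84 and 6.84 on the deficient LN arrays. The T arrays lay above all LN arrays by a small margin. The difference from wildtype LN cells was 0.64 (SE 0.12, limma adjusted p = 0.00316), or 1.56-fold. It was 0.41 without T array 1 and stayed past the test.

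Trat1, the TRIM adaptor, stood at 8.35 and 7.16 on the T arrays, between 5.09 and 5.43 on the wildtype LN arrays and between 5.15 and 5.46 on the deficient LN arrays. The groups did not overlap. The difference was 2.50 (SE 0.26, limma adjusted p = 8.00e-05), or 5.67-fold, and ranked 15 from the highest. It was 1.91 without T array 1 and 3.10 without T array 2.

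Ptcra, the surrogate alpha chain, had arrays that overlapped across the 3 groups. It stood at 7.14 and 6.97 on the T arrays, at 7.30, 7.02 and 7.04 on the wildtype LN arrays and between 7.08 and 7.13 on the deficient LN arrays. The difference of -0.06 (SE 0.10, limma adjusted p = 0.726) had a 95% interval of -0.28 to 0.15. Whether the probeset responds to its transcript was not tested.

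Trgv1, the gamma-chain segment, stood at 12.09 and 11.77 on the T arrays, at 7.08, 7.55 and 7.58 on the wildtype LN arrays and at 6.86, 6.55 and 6.85 on the deficient LN arrays. The 3 groups did not overlap on this probeset. The difference between T and wildtype LN cells was 4.53 (SE 0.16, limma adjusted p = 3.85e-08), or 23.0-fold, the third largest rise. Gamma segments resemble each other in sequence, so the probeset may also take up transcripts of other segments, and a germline transcript cannot be told apart from a rearranged one.

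**Figure D2:**
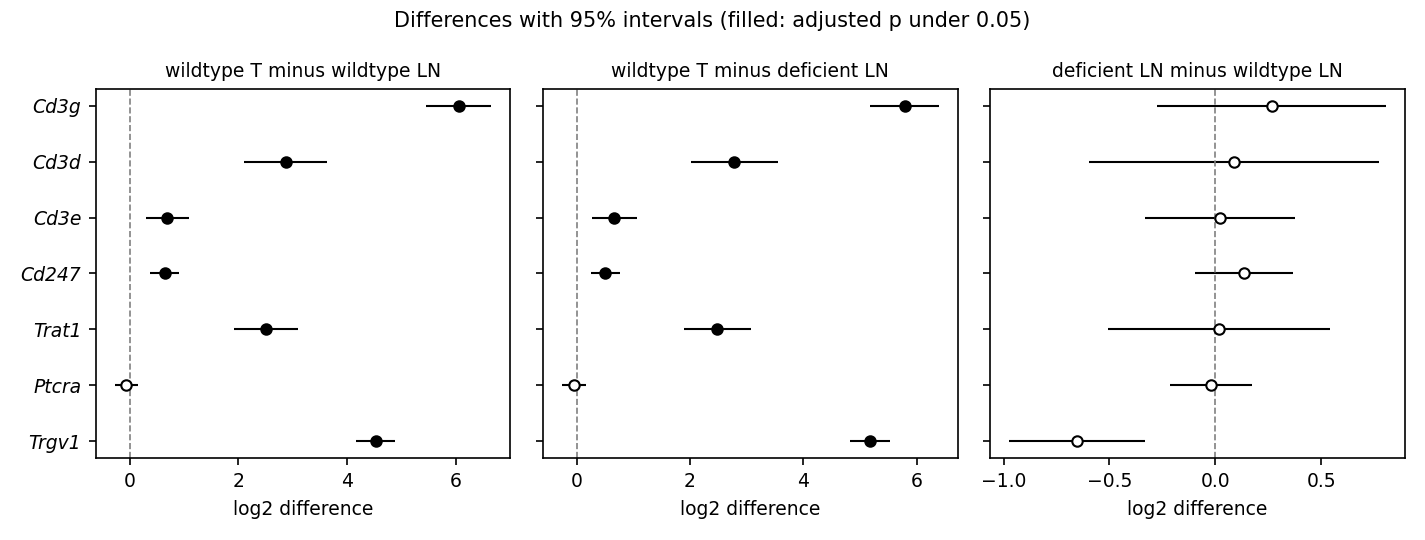
Log2 difference (horizontal axis, each panel on its own scale) of each gene in the 3 comparisons, with 95% intervals from the fit, filled where the adjusted p was under 0.05. The rise of Cd3g was 6.05 and that of Cd247 0.64 against wildtype LN cells, and no gene was called between the LN groups.

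Against deficient LN cells the same T arrays gave 6 of 7 genes called higher and 0 lower, where 5.98% of all probesets were called higher and 8.16% lower. The comparison shares its T arrays with the one above, so its values are given side by side and not as independent support. Cd3g was higher by 5.79, Trgv1 by 5.18, Cd3d by 2.78 and Trat1 by 2.48, with limma adjusted p between 3.04e-08 and 0.000312. Cd3e was higher by 0.67 (SE 0.18, limma adjusted p = 0.0311) and Cd247 by 0.50 (SE 0.12, limma adjusted p = 0.0151). Without T array 1 both calls were lost, with 0.37 for Cd3e (limma adjusted p = 0.277) and 0.28 for Cd247 (limma adjusted p = 0.130). Without deficient LN array 1 both were lost too (0.57 and 0.46, limma adjusted p = 0.103 and 0.0533), and without deficient LN array 3 that of Cd3e was lost (0.67, limma adjusted p = 0.0680). With the replicate block Cd3e was lost as well (0.60, limma adjusted p = 0.0866). Ptcra differed by -0.04 (SE 0.10, limma adjusted p = 0.823).

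Transcripts listed as markers of other cell types also differed in the T comparisons. Dendritic cell and MHC class II markers had a mean level between 6.16 and 6.27 on the T arrays, between 9.25 and 9.56 on the wildtype LN arrays and between 9.08 and 9.32 on the deficient LN arrays. Of these 12 markers 11 were called lower against wildtype and 10 against deficient LN cells. Granulocyte and monocyte markers had 6.89 to 7.14 on the T arrays, 8.91 to 9.44 on the wildtype LN arrays and at least 8.97 on each deficient LN array, with 10 of 14 lower in both comparisons. Of 14 natural killer and innate lymphoid markers 4 were higher and 2 lower in T than in wildtype LN cells. Their mean levels of 6.39 to 6.42 against 6.56 to 6.59 cover large changes in opposite directions. Klrd1 (-5.71) and Klrk1 (-3.93) were lower, while Gzma (3.24), Gzmb (2.33), Zbtb16 (1.09) and Il2rb (0.51) were higher. Of 11 stromal markers 0 were higher and 1 was lower. Against deficient LN cells 2 of them were lower, and 0 were called between the LN groups. Their mean level was 6.45 to 6.53 on the T arrays. On the LN arrays it was 6.55 to 6.60 (wildtype) and 6.57 to 6.77 (deficient). Of 9 B lineage markers 1 was higher (Rag1, also a T lineage gene) and 2 were lower. Of 10 mature T cell markers 6 were measured, of which 0 were higher and 2 were lower. Of 6 mast cell and basophil markers 1 was higher (Cpa3, a mast cell protease, by 2.39, limma adjusted p = 3.90e-05) and 1 was lower (Prss34), with a mean level of 7.19 to 7.27 on the T arrays, 6.75 to 7.11 on the wildtype LN arrays and 6.65 to 7.17 on the deficient LN arrays. Of 5 erythroid and megakaryocyte markers 1 was higher (Itga2b, an integrin chain of megakaryocytes and progenitors, by 1.32, limma adjusted p = 5.24e-06) and 1 was lower (Pf4), with a mean level of 6.53 to 6.63 on the T arrays, 6.37 to 6.46 on the wildtype LN arrays and 6.30 to 6.61 on the deficient LN arrays. Which cells carried these transcripts, and the part of other cell types in the differences of the receptor genes, was not tested.

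The second question was whether deficient LN cells differed in these genes from wildtype LN cells. Both LN groups are the cells that the gate left after 4 days of culture. With the dendritic cell, granulocyte and monocyte marker levels given above, the comparison may not be one of progenitors alone, which was not tested. None of the 7 genes passed between deficient and wildtype LN cells (0 of 7, against 0.00459% of all probesets), and 1 of the 7, Trgv1, had an unadjusted limma p under 0.05, as did 1071 of all 21789 probesets. In size the median difference was 0.09 for the 7 genes and 0.06 for all probesets.

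Trgv1 was the gene with the largest difference of the 7, lying on all 3 deficient arrays below all 3 wildtype arrays. The difference was -0.65 (SE 0.14, 95% interval -0.97 to -0.33, unadjusted p = 0.00100), which did not pass over all probesets (limma adjusted p = 0.466, between 0.0956 and 1 under the alternatives). It ranked 19 from the lowest of the 21789 differences. Il2ra, whose protein was gated out of both LN groups, was lower in the same arrays (-1.02, SE 0.10, limma adjusted p = 0.0283). It was the only 1 of the 21789 probesets called between the LN groups. Its level was 6.97 ± 0.06 (SD, n = 3) in wildtype LN cells and 5.95 ± 0.23 (SD, n = 3) in those of the deficient mice. Its part in the difference of Trgv1 was not tested.

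The measured means of the CD3 chains did not share that direction, and none of their differences passed. Cd3g stood on every deficient array above every wildtype array, by 0.27 in the mean (SE 0.24, 95% interval -0.27 to 0.81, limma adjusted p = 0.999). So did Cd247, by 0.13 (SE 0.10, limma adjusted p = 0.999). The Cd3g levels, 4.72 to 5.16 on the LN arrays, lay below the array medians of 6.85 to 6.91, so this ordering is one of dim values. Deficient arrays lay wholly above wildtype arrays for 2 of 7 genes and for 3.93% of all probesets, and wholly below for 1 of 7 and for 6.01%. Cd3d (0.09, 95% interval -0.60 to 0.77), Cd3e (0.02, -0.33 to 0.38), Trat1 (0.02, -0.51 to 0.54) and Ptcra (-0.02, -0.21 to 0.18) overlapped. The spread behind these intervals is shared with the T arrays, and the 6 LN arrays by themselves spanned 0.44 for Cd3g and 0.22 for Cd3d. With the LN arrays fitted alone the SE of Cd3g was 0.08 and it did not pass (limma adjusted p = 0.641).

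The 2 T arrays differed from each other in the receptor genes. Array 1 was above array 2 for 7 of 7 genes, by 1.68 for Cd3d, 1.30 for Cd3g, 1.19 for Trat1, 0.60 for Cd3e, 0.45 for Cd247, 0.33 for Trgv1 and 0.16 for Ptcra. A gap of 0.5 or more was found for 4 of the 7 and for 2.32% of all tested probesets, whose median gap was 0.11. Of all 1670 probesets called higher in T than in wildtype LN cells, 831 (49.8%) were higher on array 1. Of the 28 called higher by 2 or more, which include 4 of the 7 genes, 26 were higher on array 1. For 18 of the 28, including 3 of the 7 genes, the gap was 0.5 or more. The mean level of 3 Y-linked genes was 9.36 on T array 1 and 5.04 on T array 2, and on the LN arrays it was high on deficient array 2 and wildtype arrays 1 and 3 (9.54 to 9.80) and low on the others (4.74 to 5.00). With that level as a covariate 6 of the 7 genes stayed called in both T comparisons.

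**Figure D3:**
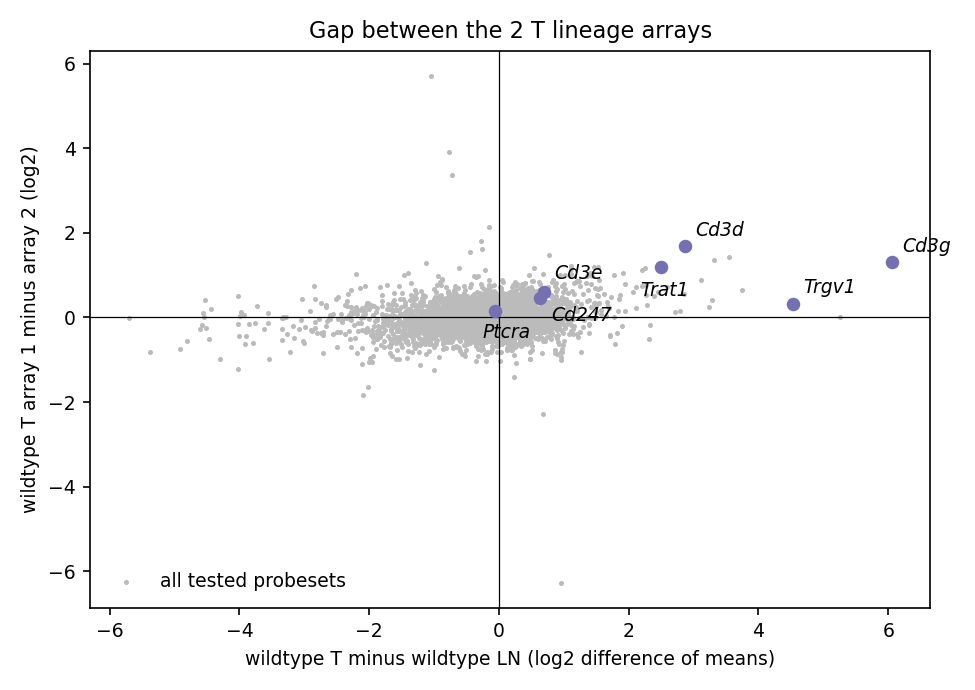
For every tested probeset (grey), the difference between T and wildtype LN cells (log2, horizontal axis) and the gap between T array 1 and T array 2 (log2, vertical axis), with the 7 genes in colour. All 7 lie above 0 on the vertical axis, from 0.16 for Ptcra to 1.68 for Cd3d.

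Likeness of pattern was measured for the genes whose arrays spanned at least 1, as the root mean square difference over the 8 arrays after centring each probeset. Nearest to Cd3d were Trat1 (0.24), the recombinase gene Rag1 (0.25) and Akr1c12 (0.25). Nearest to Trat1 were Ctla4 (0.17), an inhibitory receptor of T cells, Fam169b (0.20) and Tubb3 (0.22). Nearest to Cd3g were Il2ra (0.67), Trgv1 (0.69) and Thy1 (0.98), and nearest to Trgv1 were Il2ra (0.45), Plxdc2 (0.63) and Thy1 (0.63). The measure is not scaled, so a gene with a large rise lies nearest to others with a large rise (Il2ra 5.26, Thy1 3.74). Il2ra and Thy1 encode the gated proteins, so the sort itself separated them between T and LN cells. Cd3e, with a smaller span, lay nearest to Slc35g1 (0.07), Adamts9 (0.10) and Gm525 (0.10). Cd247 and Ptcra spanned 0.89 and 0.32 and were left out.

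The other genes of the receptor pathway went both ways between T and wildtype LN cells, where 18.0% of all probesets were called in either direction. A listed gene with several probesets was counted by that of smallest p in this comparison. The list counts can therefore run above that share, which counts every probeset. Of 8 other segments of the receptor loci 2 rose, 0 fell and 6 did not pass. The delta segment Trdv2-2 rose by 1.52 (SE 0.18, limma adjusted p = 0.000207) and the beta segment Trbv1 by 0.68 (SE 0.11, limma adjusted p = 0.00128), while the 6 alpha segments measured lay between 0.04 and 0.29. Of the V(D)J recombinase genes Rag1 (3.32) and Rag2 (1.16) rose, and Dntt, which adds untemplated bases at junctions, stood at -0.15 (limma adjusted p = 0.857). The T arrays lay on opposite sides of the LN mean for Dntt, which was called lower without T array 1 (-1.22) and higher without T array 2 (0.91). Rag2 rose by 0.76 without T array 1.

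Of 31 proximal signalling genes 13 rose, 7 fell and 11 did not pass, with a median of 0.15. The largest changes were those of Prkcq, a protein kinase C isoform of T cell activation (2.45), Lat, the membrane scaffold phosphorylated by ZAP-70 (2.29), Txk, a Tec family kinase (1.92), and Nck2, an adaptor that binds CD3 epsilon (1.42). Of 14 co-receptors and surface receptors 2 rose and 5 fell. Ctla4 rose by 2.26 and Cd160 by 1.72, while Cd7 fell by 3.08 and Cd28 fell by 1.48. The co-receptor gene Cd4 stood at 0.01 and did not pass, and Cd8a fell by 1.03.

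Among other adaptors that carry ITAMs, with the related DAP10 gene Hcst, 0 of 5 rose and 3 fell. Tyrobp (DAP12) fell by 1.05, Cd79b of the B cell receptor fell by 0.68, and Fcer1g, the Fc receptor gamma chain that can pair with the zeta chain, fell by 0.68. Against deficient LN cells Fcer1g stood at -0.24 (SE 0.10, limma adjusted p = 0.155), and its level was 9.87 ± 0.0018 (SD, n = 2) in T cells, 10.55 ± 0.12 (SD, n = 3) in wildtype LN and 10.11 ± 0.14 (SD, n = 3) in deficient LN cells.

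Of 19 regulators of the receptor genes 10 rose, 4 fell and 5 did not pass. Gata3 rose by 1.68 and Ets1 by 1.29, while the E protein inhibitors Id2 fell by 2.37 and Id3 fell by 2.19. Without T array 1 the number that rose was 5 (Gata3, Bcl11b, Ets1, Myb and Hes1). Of 12 genes linked to gamma delta T cells 3 rose and 0 fell. Zbtb16, the factor PLZF of innate-like T cells, rose by 1.09 (SE 0.14, limma adjusted p = 0.000317). Cd163l1 rose by 0.82 (SE 0.19, limma adjusted p = 0.0126), a call lost in 2 of 17 alternatives, without T array 1 (0.41) and with all probesets tested. Sox13, a factor of gamma delta cells, rose by 0.25 (SE 0.08, limma adjusted p = 0.0450), and this call was lost in 11 of 17 alternatives. Among these were leaving out T array 1 (0.23) or 2 (0.27), wildtype LN array 1 (0.26), 2 (0.27) or 3 (0.22) or deficient LN array 3 (0.25), and the replicate block. Without T array 1 the list had 1 gene higher (Zbtb16) and 1 lower (Blk, -0.61).

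**Figure D4:**
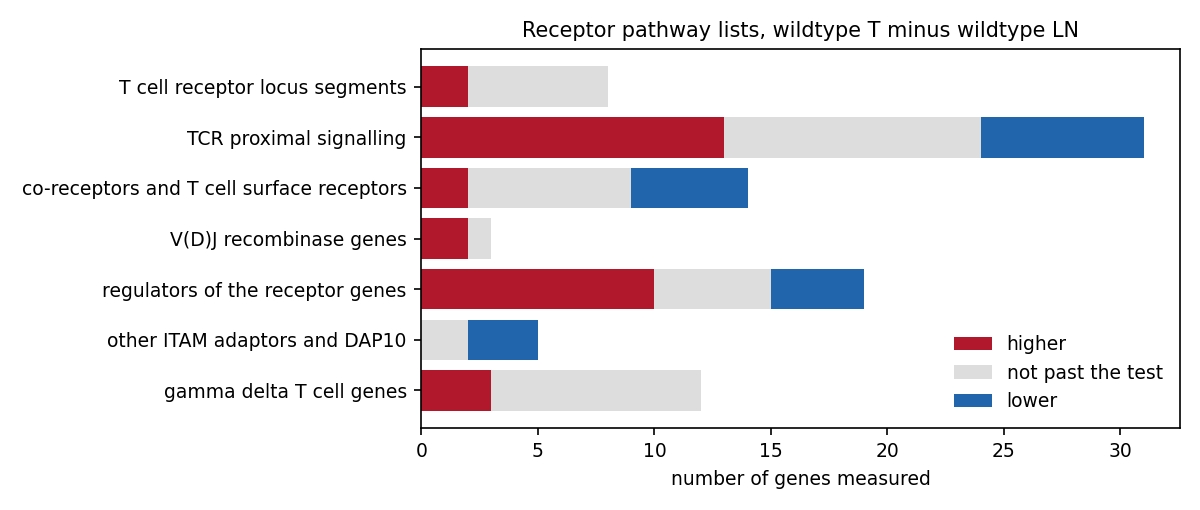
Number of measured genes (horizontal axis) in each receptor pathway list that were higher, lower or not past the test in wildtype T against wildtype LN cells. The signalling list holds 13 higher and 7 lower of 31, and the list of other ITAM adaptors 0 higher and 3 lower of 5.

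Against deficient LN cells the counts were 2 higher and 0 lower of 8 receptor segments, 13 and 6 of 31 signalling genes, 2 and 4 of 14 surface receptors, 2 and 0 of 3 recombinase genes, 7 and 3 of 19 regulators, 0 and 2 of 5 adaptors and 2 and 0 of 12 gamma delta genes. The background there was 14.1% of all probesets in either direction, counted without the choice of probeset made for the lists. Without T array 1 the regulators had 3 higher (Gata3, Bcl11b and Ets1) and the receptor segments 1, with Trbv1 lost (0.44), while Dntt (-1.27) and Blk (-0.75) were called lower. Without T array 2 Dntt was called higher (0.86). Cd163l1 was called at 0.72 (SE 0.19, limma adjusted p = 0.0309) and lost in 7 of 17 alternatives, among them without T array 1 (0.30), without any 1 of the 3 deficient LN arrays (0.68, 0.75 and 0.72) and with the replicate block (0.68). Between the LN groups no gene of these 7 lists passed with limma.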

How the data were processed

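Biotin-labelled cDNA was made from 10 ng of amplified total RNA, per the labels' protocols. The deposited log2 values were made by the authors with RMA, which corrects background, normalises arrays together and summarises probes, in Partek 6.5, per the submitters' processing notes. The log2 scale was read from the values. The array's genome build is not given in the sources used here.

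Of 35399 probesets, 11989 without a gene and 1621 with several genes were left out, and 21789 were tested. Identifiers matched RefSeq for 99.6%. One limma 3.58.1 fit (R 4.3.3, lmFit and eBayes) took all 8 arrays as 3 groups with 5 residual degrees of freedom, two-sided, with Benjamini-Hochberg adjustment over all tested probesets and a call at adjusted p under 0.05. RMA pulls arrays towards one distribution, and the number of arrays limits precision. The fit was tested on simulated data.

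The 7 genes and the lists were chosen with earlier results of these data known. Named genes were the 7 genes, the 3 nearest in pattern, and up to 4 called genes of largest difference per pathway list. A listed gene with several probesets was taken by the one of smallest p in wildtype T against wildtype LN cells, for all comparisons. Dntt, Blk, Cd4, Cd8a, the alpha segments, Cpa3, Prss34, Itga2b, Pf4, Klrd1, Klrk1, Gzma, Gzmb and Il2rb were named after their values were seen. Alternatives were leaving out each array, 2 normalizations, a filter on dim probesets, all probesets, the replicate number as a block, array weights, 2 groups at a time, a Y-linked covariate and another variance model.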

Additional observations from a re-analysis of the deposited data

Results flagged for a closer look

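Beside the Trgv1 probeset, 3 probesets that the annotation assigns to several gamma-chain variable segments at once were outside the comparisons, and all 3 carried a signal that was higher in T cells. They rose against wildtype LN cells by 1.47 (SE 0.12), 1.07 (SE 0.09) and 1.31 (SE 0.09), with limma adjusted p of 0.000318, 0.000316 and 0.000153 over all 35399 probesets. In LN cells the last 2 were lower on every deficient array than on every wildtype array, by -0.41 (SE 0.08) and -0.46 (SE 0.08), and the first, which overlapped, by -0.15 (SE 0.11). None passed between the LN groups (limma adjusted p = 0.698, 0.651 and 1.00). Levels of the last were 11.07 ± 0.07 (SD, n = 3) in deficient LN, 11.54 ± 0.12 (SD, n = 3) in wildtype LN and 12.84 ± 0.08 (SD, n = 2) in T cells. The 3 probesets list the same segments in part and share arrays, so they are not independent of each other or of Trgv1, and no single segment can be named from them. Groups of 2 or 3 arrays were too small for a check of single arrays far from the rest.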

How the results depend on the processing

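Over 17 alternatives the number of receptor genes called stayed at 0 between the LN groups, lay between 3 and 6 against wildtype LN cells and between 3 and 6 against deficient LN cells. The lowest, 3 in both, came without the dimmest 40% of probesets, which leaves out Cd3g, Cd3d and Trat1 before testing, since these were dim outside T cells; the other 3 calls (Cd3e, Cd247 and Trgv1) stood. Leaving out single arrays gave 5 to 6 and 4 to 6 calls. Where 1 T array was left, it was assumed to vary like the other groups. Of 116 refitted differences against wildtype LN cells 112 kept their side of the threshold and 4, all of Cd3e, lost it; against deficient LN cells 108 did and 8 (Cd3e and Cd247) lost it; no called difference of the 7 genes turned its sign. With all probesets tested Cd3e was lost against wildtype LN cells (limma adjusted p = 0.0770), and Cd3e (0.105) and Cd247 (0.0566) against deficient LN cells. The labels do not say that a replicate number marks a shared mouse. Deviations from the group means of same-numbered arrays correlated at -0.25 to 0.16 over 7 pairs; the 2 over 0.1 were the wildtype LN and T arrays numbered 1 (0.16) and 2 (0.12), which also matched in Y-linked level (9.59 and 9.36, 4.74 and 5.04). With the number as a replicate block 5 genes were called in each T comparison and 0 between LN groups, with Cd3e at 0.63 (limma adjusted p = 0.0655) and 0.60 (0.0866). The numbers of calls among all probesets against wildtype LN cells split into 1670 higher and 2258 lower, and into 2174 and 2006 after a second quantile normalization. The pathway lists were refitted after the data were seen: without the dimmest 40% of probesets 8 signalling genes rose in place of 13. Dntt was called lower without T array 1 (-1.22 and -1.27 against wildtype and deficient LN cells) and higher without T array 2 (0.91 and 0.86). Cd28 was called against deficient LN cells without wildtype LN array 1 and with 2 groups at a time (-0.64 in both). Between the LN groups the number of calls over all probesets was 1 (Il2ra), and 0 to 12 when single arrays were left out.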
